A study of Homo sapiens with 2 samples.

Results

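SERPINA3 and PTX3, both secreted proteins of the acute inflammatory response, were examined together with LIF and 7 other genes of the interleukin-6 (IL-6) cytokine family and its signalling route through STAT3. The 10 genes were taken by symbol from a table of 58698 genes, and each symbol occurred once. They were proposed with the values of this same comparison known, so every level and difference below is a description. Total RNA had been sequenced from cultures of MIA PaCa-2, a long-established line from a human pancreatic carcinoma. One culture was labelled sgGFP with the genotype WT, its guide being directed at green fluorescent protein, which human cells lack. The other was labelled sgTPST2 with the genotype TPST2 KD, a guide against the Golgi enzyme that sulfates tyrosines of secreted and membrane proteins. Each condition was 1 library, so the error between replicates is unknown and no difference was tested. Whether the guide cut or repressed the gene, and whether the cells were a pool or 1 clone, was not given in the sources used here.

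In this pathway a secreted ligand such as LIF, IL-6 or IL-11 binds its own receptor chain, which pairs with the shared chain gp130, encoded by IL6ST. The receptor-bound JAK kinases then phosphorylate STAT3, which enters the nucleus and activates target genes. SOCS3 is one of these targets and feeds back by inhibiting the receptor complex. SERPINA3, or alpha-1-antichymotrypsin, is an inhibitor of chymotrypsin-like serine proteases that the liver releases in the acute phase. PTX3 is a long pentraxin, a soluble pattern recognition protein made locally by many cell types on stimulation with IL-1 or TNF. In pancreatic cancer, LIF has been studied as a signal between tumour cells and their stroma.

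Values are given in FPKM, fragment counts divided by transcript length and library depth, and differences as log2((sgTPST2 + 1)/(sgGFP + 1)), negative where sgTPST2 was lower. Judged by the steps between low values, 1 FPKM was worth some 42.6 fragments on 1 kb of RNA in sgGFP and 47.4 in sgTPST2. Intervals are 95% Poisson intervals for 1 kb of transcript and cover counting error only. TPST2 itself stood at 8.46 FPKM in sgGFP and 1.92 in sgTPST2, a difference of -1.70, in the direction of its label. TPST1, its paralogue, had 14.2 and 16.2 FPKM, and SLC35B2, the Golgi transporter of the sulfate donor, at 45.2 and 39.6. Of the markers of the labelled line, VIM stood at 2661 and 3118 FPKM and KRT18 at 583 and 85.3, while EPCAM was listed at 0 in both libraries.

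Among the 10 genes, 3 stood at least 2-fold lower in sgTPST2 on the log2(FPKM + 1) scale, namely SERPINA3, PTX3 and LIF, and 0 stood at least 2-fold higher. Of the 10, 8 reached 1 FPKM in at least 1 library, whereas IL6 and IL11 did not. Over all 13420 genes that reached it, 2.93% were at least 2-fold lower and 1.61% at least 2-fold higher, a background from which nothing is read for genes chosen on the same values. At 1.5-fold on the same scale, the same 3 genes were lower and OSMR was higher, against 6.94% and 4.41% of all genes. In FPKM alone, SOCS3 was also 1.61-fold higher. In bulk RNA, fewer cells expressing a gene and less RNA of it per cell cannot be told apart.

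**Figure D1:**
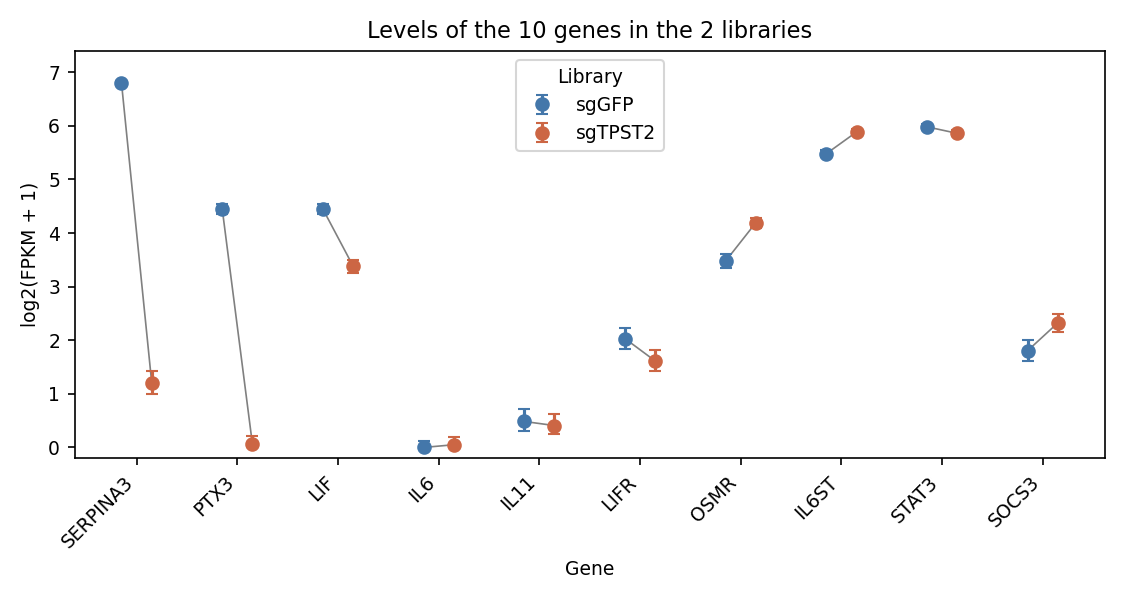
Level of each gene as log2(FPKM + 1) in the sgGFP library (blue) and the sgTPST2 library (orange), with 95% Poisson intervals for 1 kb of transcript and a grey line joining the 2 values. SERPINA3 and PTX3 stood far lower in sgTPST2, LIF lower, OSMR, IL6ST and SOCS3 higher, and IL6 and IL11 near 0 in both.

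The stretches before the start sites of PTX3, SERPINA3 and IL6 are shown because PTX3 and SERPINA3 had the largest differences, and because IL6, with the same kinds of motif as PTX3, was at or near 0 in both libraries. They come from RefSeq (GRCh38.p14), where 9 of the 10 genes had an entry, with LIF the exception. They run 5′ to 3′ on the plus strand and leave out bases that GENCODE release 29 annotates as exon. Capitals mark matches to the NF-kappaB consensus and to the C/EBP motif TTGCNNAA.
PTX3 (chr3:157436600-157436788): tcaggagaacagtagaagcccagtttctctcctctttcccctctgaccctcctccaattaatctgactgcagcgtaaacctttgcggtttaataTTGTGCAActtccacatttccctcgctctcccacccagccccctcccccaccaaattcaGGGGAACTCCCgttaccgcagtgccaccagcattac
SERPINA3 (chr14:94612141-94612296): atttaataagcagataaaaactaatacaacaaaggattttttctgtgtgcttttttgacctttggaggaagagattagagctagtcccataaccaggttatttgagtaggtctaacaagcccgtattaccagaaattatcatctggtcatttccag
IL6 (chr7:22726950-22727146): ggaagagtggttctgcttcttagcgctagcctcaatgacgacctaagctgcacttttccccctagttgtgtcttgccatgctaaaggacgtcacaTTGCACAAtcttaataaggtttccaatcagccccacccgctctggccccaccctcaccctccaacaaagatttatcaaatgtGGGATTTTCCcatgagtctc

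Both strands of the 250 bases before each RefSeq start were searched for 5 motifs. The NF-kappaB consensus matched on the plus strand of PTX3 from 97 to 88 bases before the start, with an overlapping match 1 base further on the other strand, and in IL6 from 73 to 64 bases before it. Of all 35116 such windows, 5.21% held a match. The C/EBP letters were TTGCACAA in both genes, on the minus strand in PTX3 and the plus strand in IL6, while OSMR and 1 window of LIFR held TTGCAAAA, and 9.05% of windows held a C/EBP match. The STAT motif TTCNNNGAA matched in 2 of the 3 windows of LIFR and in no window of the other 8 genes, against 6.57% of all windows. Those of SOCS3 lay before RefSeq starts at 78359667 and 78360925. The bases just before its GENCODE start, at 78360077 on the minus strand, were not searched. The AP-1 motif TGANTCA matched in IL11 alone of the 9 genes (6.57% of windows), and TATAAA only in 1 window of LIFR (10.7%). The SERPINA3 window held none of the 5. These are matches of letters, not measured binding sites.

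SERPINA3 (ENSG00000196136.17, chromosome 14, 94612377 to 94624055, plus strand, GRCh38) was the most abundant of the 10 genes in sgGFP. It stood at 110 FPKM there (107 to 114) and at 1.31 FPKM in sgTPST2 (1.01 to 1.68). The value in sgGFP was 84.0 times that in sgTPST2, with a counting interval of 65.8 to 110, and the difference was -5.59. Among protein-coding genes it was number 903 by level in sgGFP and number 10484 in sgTPST2. Its difference was the lowest of the 11043 protein-coding genes that reached 1 FPKM and that the authors tested. In the authors' deposited table it has p = 5e-05 and q = 0.0126. No smaller q is listed there, but genes tied at this value were not counted. Of 18574 tested genes, 96 have q at or below 0.05. That test rests on 2 libraries and compares them, not the conditions.

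SERPINA3 lies in a cluster of related serpin genes on chromosome 14, and it was the single gene of that cluster past 1 FPKM. Of the 10 cluster genes in the list used, 7 were listed at 0 in both libraries. SERPINA1, the alpha-1-antitrypsin gene, was at 0.219 and 0.0160 FPKM, and SERPINA5, the protein C inhibitor gene, at 0.269 FPKM in sgGFP and listed at 0 in sgTPST2. A second annotated gene on the same strand, AL049839.2, shares 1592 of the 5007 exonic bases of SERPINA3, so reads there could be assigned to either; it was at 0.393 FPKM and listed at 0 in sgTPST2. The nearest expressed protein-coding genes were PPP4R4, 333 kb before, at 1.59 and 0.762 FPKM, and the microRNA-processing nuclease gene DICER1, 462 kb after, at 21.2 and 19.7. On the log2(FPKM + 1) scale, 0 of the 7 expressed protein-coding genes within 1 Mb were 1.5-fold apart. On that scale 5.91% of all protein-coding genes were lower and 3.16% higher by that much. Differences of the 7 ran from -0.55, in PPP4R4, to 0.41, with a median of -0.06. In FPKM alone, PPP4R4 was lower by more than 1.5-fold.

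Other acute-phase genes were low in these cells. Of 20 genes in that list, 8 were listed at 0 in both libraries, among them CRP, and 3 passed 1 FPKM. Apart from SERPINA3 these were the complement factor gene CFB, at 0.874 FPKM in sgGFP and 2.86 in sgTPST2, and ITIH4 at 0.970 and 1.08; both are named after their values were seen. In FPKM, CFB was 3.27-fold higher in sgTPST2, with a difference of 1.04 on the log2(FPKM + 1) scale, where SERPINA3 was lower. The hepatocyte marker ALB was listed at 0 in both libraries, and the 7 hepatocyte markers summed to 0.0724 and 0.116 FPKM. The 10 chymotrypsin-like and neutrophil proteases, which include targets of SERPINA3, summed to 0.234 and 0.0247 FPKM.

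Most serpins outside the cluster that passed 1 FPKM were also lower, with smaller differences. Of 20 such genes, 7 passed 1 FPKM. On the log2(FPKM + 1) scale, 3 were at least 1.5-fold lower and 0 higher, against 6.94% and 4.41% of all genes past the filter. The median of the 7 was -0.58 against 0.00 over all genes past the filter. SERPINF1, the antiangiogenic protein PEDF, stood at 9.64 and 2.92 FPKM, and SERPINB6, an intracellular inhibitor, at 184.9 and 96.96. SERPINB9, the granzyme B inhibitor, whose gene lies near SERPINB6 on chromosome 6, stood at 26.2 and 15.2 FPKM. SERPINB8 was at 25.6 and 16.8 FPKM, 1.53-fold lower in FPKM alone and just under 1.5-fold on the log2(FPKM + 1) scale. The furthest of these 4, SERPINF1, had a difference of -1.44 against the -5.59 of SERPINA3. By contrast, SERPINB1 was at 26.7 and 24.8 FPKM, and SERPINH1 was higher, at 69.0 and 75.6. Both are named after their values were seen.

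PTX3 (ENSG00000163661.3, chromosome 3, 157436789 to 157443628, plus strand) was well expressed in sgGFP and nearly absent in sgTPST2. It stood at 20.9 FPKM in sgGFP and at 0.0475 FPKM in sgTPST2. PTX3 has 1 annotated transcript, of 1940 bases, so its fragments could be read off directly: about 1550 in sgGFP and 4 in sgTPST2. On that length the intervals are 19.9 to 21.999 and 0.0129 to 0.122 FPKM, and the ratio of sgGFP to sgTPST2 was 441 with a counting interval of 171 to 1613. The difference of -4.39 was the third lowest of the 11043 genes. The pseudocount of 1 keeps it much smaller in size than the log2 ratio of -8.78. The authors' deposited table gives p = 0.22 and q = 0.99965 for PTX3, and lists it at a locus shared with 3 other genes. SERPINA3 is likewise listed at a locus of 4 genes.

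One of the 3 genes that share the listed locus of PTX3 is VEPH1, which encodes a pleckstrin-homology domain protein. Its span on the minus strand (157259742 to 157533619) encloses PTX3. VEPH1 was also lower, at 52.6 FPKM in sgGFP and 9.67 in sgTPST2, a difference of -2.33. The authors' deposited table gives it p = 0.001 and q = 0.145. Exons of VEPH1 cover 71 of the 1940 exonic bases of PTX3. The library kit keeps strand, but for the counting a strand setting was not given in the sources used here. Without strand, reads over those bases cannot be told apart. Of all protein-coding genes past 1 FPKM, 5.91% were at least 1.5-fold lower on the log2(FPKM + 1) scale and 3.16% higher. Of the 8 within 1 Mb of PTX3, 4 were lower by that much and 0 higher, with a median of -0.43. Beside VEPH1 these were TIPARP, an ADP-ribosyltransferase gene, at 31.0 and 15.8 FPKM, the homeobox gene SHOX2 at 46.1 and 26.6, and PQLC2L at 23.1 and 14.9. CCNL1, the nearest expressed gene before PTX3, was at 113 and 95.9 FPKM, and SSR3 at 163 and 165. Lower values at this locus were shared by several genes. TIPARP, SHOX2 and SSR3 are named after their values were seen, and the part of the region in the difference of PTX3 was not tested.

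**Figure D2:**
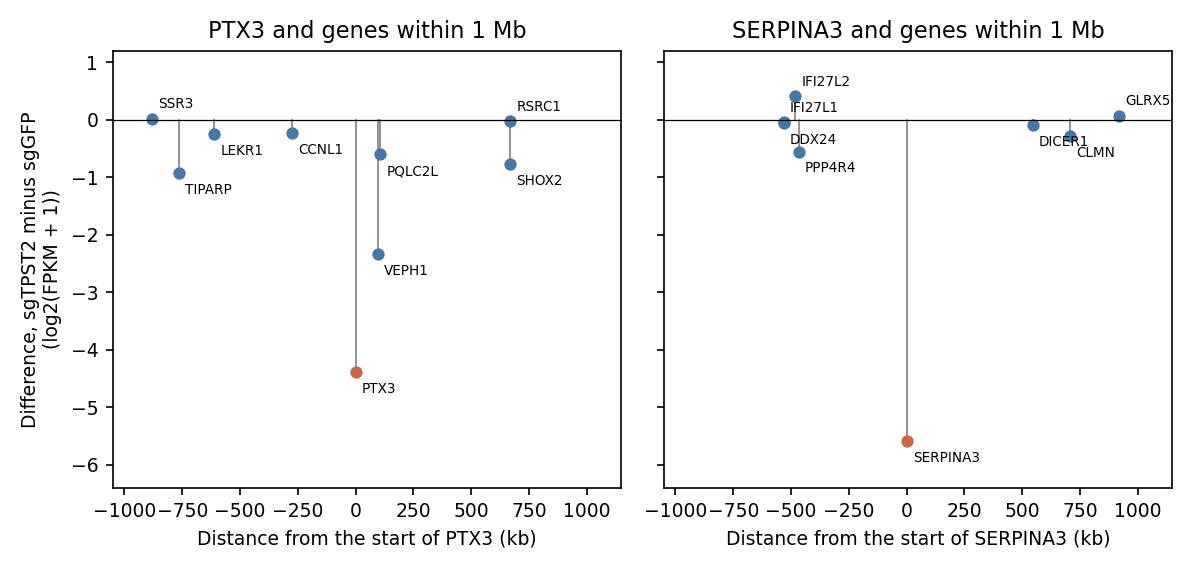
Difference (sgTPST2 minus sgGFP, log2(FPKM + 1)) of PTX3 (left) and SERPINA3 (right), in orange, and of expressed protein-coding genes within 1 Mb, in blue, against the distance of each gene's start in kb along the direction of transcription. On this scale, 4 of 8 genes around PTX3 were at least 1.5-fold lower, VEPH1 the furthest, and 0 of 7 around SERPINA3. Of all protein-coding genes, 5.91% were.

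The other pentraxins were barely expressed. Of 7 family members, 3 were listed at 0 in both libraries and PTX3 alone passed 1 FPKM. The neuronal pentraxin NPTX1, named after its values were seen, was at 0.822 and 0.0464 FPKM, and its receptor NPTXR at 0.423 and 0.413. Among 10 ligands and partners of PTX3, 7 were listed at 0 in both libraries, and FGF2, a growth factor that PTX3 binds, was the 1 past 1 FPKM, at 15.8 and 22.1. Endothelial cells and fibroblasts can also make PTX3, and their markers were counted. Of all genes past 1 FPKM, 6.94% were at least 1.5-fold lower. Of 6 endothelial markers 2 passed 1 FPKM and both were lower, with a sum over the list of 12.7 FPKM in sgGFP and 0.418 in sgTPST2. These were EMCN, at 9.64 and 0.136 FPKM, which made most of the sgGFP sum, and CDH5 at 2.93 and 0.277. CDH5 is named after its values were seen. PECAM1, KDR and TEK were listed at 0 in both. Of 9 fibroblast markers 3 passed and all 3 were lower, with sums of 50.2 and 16.7 FPKM, while DCN, LUM and FAP were listed at 0 in both. Of 9 leukocyte markers 2 passed, with sums of 6.52 and 3.71 FPKM; CD3E and MPO were listed at 0 in both, and PTPRC was at 0.102 FPKM in sgGFP and listed at 0 in sgTPST2. The part of these markers in the differences of PTX3, SERPINA3 and LIF was not tested.

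LIF (ENSG00000128342.4, chromosome 22, 30240447 to 30246851, minus strand) was the one ligand of the IL-6 family among the 10 genes with an appreciable level. It stood at 20.8 FPKM in sgGFP (19.5 to 22.2) and at 9.44 in sgTPST2 (8.58 to 10.4), a difference of -1.06. The counting interval of that difference, -1.22 to -0.91, includes the 2-fold threshold of -1. Differences as large in size were seen in 2.75% of the 11043 protein-coding genes. In the authors' deposited table LIF has p = 0.0369 and q = 0.99965. Of the LIF neighbours, MTMR3 was at 6.43 and 7.16 FPKM and CASTOR1 at 7.54 and 5.39. On the log2(FPKM + 1) scale, 0 of the 28 expressed protein-coding genes within 1 Mb were 1.5-fold lower and 1 was higher. Over all protein-coding genes the shares were 5.91% and 3.16%. The higher gene was SELENOM, at 52.6 and 80.5 FPKM, named after its values were seen.

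IL6 and IL11 contributed little RNA in either library. IL6 (chromosome 7, 22725884 to 22732002) was listed at 0 in sgGFP and at 0.0358 FPKM in sgTPST2, which is under 2 fragments per kb. IL11 (chromosome 19, 55364389 to 55370463) was at 0.400 FPKM in sgGFP (0.233 to 0.640) and at 0.327 in sgTPST2 (0.185 to 0.535). The intervals overlap, and no difference in IL6 or IL11 was detectable at this depth. Of the 10 ligand genes of the family, 3 passed 1 FPKM, of which LIF was at least 1.5-fold lower, against 6.94% of all genes. CLCF1, a ligand of the CNTF receptor named after its values were seen, was at 4.97 and 4.37 FPKM.

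The receptor chains stood on both sides of no change. LIFR, the specific chain for LIF (chromosome 5, 38474963 to 38608354), was at 3.09 FPKM in sgGFP (2.58 to 3.66) and 2.06 in sgTPST2 (1.67 to 2.51), a difference of -0.42. OSMR, the chain for oncostatin M (chromosome 5, 38845858 to 38945596), was at 10.1 FPKM (9.21 to 11.1) and 17.3 (16.1 to 18.5), a difference of 0.72. These genes neighbour each other, 238 kb apart, and differed in opposite directions. IL6ST, the shared chain gp130 (chromosome 5, 55935095 to 55994993), was at 43.6 FPKM (41.7 to 45.7) and 58.1 (56.0 to 60.3), a difference of 0.41. Per length, the level of OSMR was 3.28 times that of LIFR in sgGFP and 8.39 times in sgTPST2. Differences as large in size were seen in 15.5% of the protein-coding genes for LIFR, 6.24% for OSMR and 16.3% for IL6ST.

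The 3' end of OSMR overlaps RICTOR, a subunit of the kinase complex mTORC2, over 229 of 7174 exonic bases on the opposite strand, and RICTOR was at 8.46 and 7.89 FPKM. The processed pseudogene IL6STP1 was listed at 0 in both libraries. Of 8 receptor genes in the family, 5 passed 1 FPKM, with a median of 0.41. Of these, 2 were at least 1.5-fold higher and 0 lower, against 4.41% and 6.94% of all genes. Beside OSMR, the other higher one was IL11RA, the chain for IL-11, at 2.35 and 4.21 FPKM, named after its values were seen. IL27RA was at 33.2 and 26.9 FPKM. IL6R, the specific chain for IL-6, stayed under 1 FPKM, at 0.948 and 0.393. In the authors' deposited table LIFR, OSMR and IL6ST all have q = 0.99965.

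STAT3 (ENSG00000168610.14, chromosome 17, 42313324 to 42388568, minus strand) was close between the libraries. It was at 62.1 FPKM in sgGFP (59.8 to 64.6) and 57.1 in sgTPST2 (54.9 to 59.2), a difference of -0.12 with a counting interval of -0.20 to -0.04. Of the protein-coding genes, 59.7% differed by as much or more. RNA levels do not measure phosphorylation of STAT3, which was not analysed here. The other transducers differed in both directions. GAB1 differed most, at 1.15 and 2.13 FPKM, a difference of 0.54, and is named after its values were seen. Of 14 JAK kinases, STATs and adaptors, 12 passed 1 FPKM, with a median of 0.13. On the log2(FPKM + 1) scale 0 were 1.5-fold apart, where 6.94% of all genes were lower and 4.41% higher. In FPKM alone, GAB1 was 1.86-fold higher. The kinase TYK2 was at 62.9 and 79.6 FPKM, STAT2, a transducer of interferon signals, at 14.5 and 20.2, and STAT6 at 19.6 and 14.96. The phosphatase SHP2, encoded by PTPN11, was at 56.0 and 43.6 FPKM, and STAT5B at 12.5 and 10.2.

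SOCS3 (ENSG00000184557.4, chromosome 17, 78356778 to 78360077, minus strand) was low in both libraries and higher in sgTPST2. It was at 2.50 FPKM in sgGFP (2.05 to 3.02) and 4.01 in sgTPST2 (3.46 to 4.62), a difference of 0.52 with a counting interval of 0.26 to 0.78. The intervals of the 2 levels do not overlap, and 11.01% of protein-coding genes differed by as much or more. The authors' deposited table gives q = 0.99965. Its neighbours BIRC5 (111.9 and 132.7 FPKM) and PGS1 (14.6 and 15.9) were close between the libraries. SOCS3 and LIF, feedback inhibitor and ligand of the same route, thus differed in opposite directions.

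**Figure D3:**
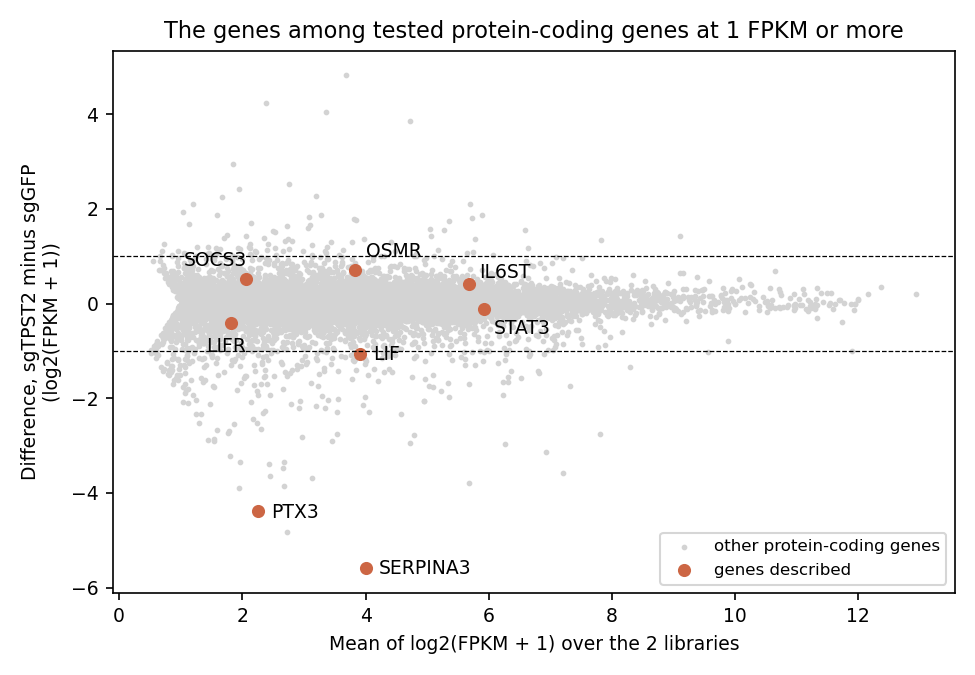
Difference (sgTPST2 minus sgGFP, log2(FPKM + 1)) against the mean level for protein-coding genes that reached 1 FPKM and that the authors tested, with the 8 genes described that reached it in orange and dashed lines at 2-fold. SERPINA3 and PTX3 lie at the lower edge, LIF at the 2-fold line, and the receptors, STAT3 and SOCS3 between the lines.

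Of 16 negative regulators of STAT signalling, SOCS3 included, 11 passed 1 FPKM. On the log2(FPKM + 1) scale 0 were 1.5-fold apart, where 6.94% of all genes were lower and 4.41% higher. In FPKM alone, SOCS3 was 1.61-fold higher. The median of the 11 was 0.0055, and that of the 10 without SOCS3 was 0.0028. PIAS3, an inhibitor of STAT3, was at 8.42 and 10.2 FPKM, PIAS1 at 8.79 and 10.04, and PIAS4 at 23.2 and 21.3. SOCS5 was at 7.63 and 6.80 FPKM, and the phosphatase PTPN1 at 13.9 and 12.7.

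Genes listed as STAT3 targets had a median of 0.02 over 22 genes past 1 FPKM, close to the 0.00 of all genes. On the log2(FPKM + 1) scale, 1 of the 22 was at least 1.5-fold higher and 3 were lower, against 4.41% and 6.94% of all genes. IRF1, an interferon-response factor, was at 18.1 and 31.0 FPKM, the angiogenic factor VEGFA at 33.5 and 20.8, and TNFRSF1A, which encodes a receptor for TNF, at 112 and 63.9. TNFRSF1A lies on the short arm of chromosome 12, of whose 192 genes past the filter 138 were at least 1.5-fold lower, and without that arm the list's median was 0.04. The metalloprotease inhibitor TIMP1 was at 284 and 190 FPKM and the AP-1 subunit FOSL2 at 11.3 and 15.8, both under 1.5-fold. FOS, named after its values were seen, was the third lower gene, at 2.42 and 0.918 FPKM. In FPKM alone, CEBPD was also 1.74-fold and MUC1 2.06-fold higher, and both are named after their values were seen.

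Upstream cytokines and NF-kappaB genes, which control PTX3, LIF and IL6 in many cells, had a median of -0.13 over 15 genes. The median was -0.039 without genes of the short arm of chromosome 12, and also -0.039 among genes at 5 FPKM or more. On the log2(FPKM + 1) scale, 3 of the 15 were at least 1.5-fold lower and 0 higher, against 6.94% and 4.41% of all genes. Beside TNFRSF1A these were the 2 IL-1 ligands, named after their values were seen: IL1A at 1.11 FPKM in sgGFP and 0.0752 in sgTPST2, and IL1B at 2.16 and 0.471. In FPKM alone, REL was also 1.70-fold lower and MYD88 1.60-fold higher, both named after their values were seen. The receptor IL1R1 was at 29.2 and 30.3 FPKM, and the subunit RELA at 9.81 and 11.2, both also named after their values were seen. NFKB2 was at 13.9 and 20.2 FPKM, the feedback inhibitors NFKBIA at 197 and 169 and TNFAIP3 at 5.60 and 4.09, and the nuclear cofactor NFKBIZ at 9.77 and 11.8. The IL-1 ligands thus stood lower while their receptor did not.

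**Figure D4:**
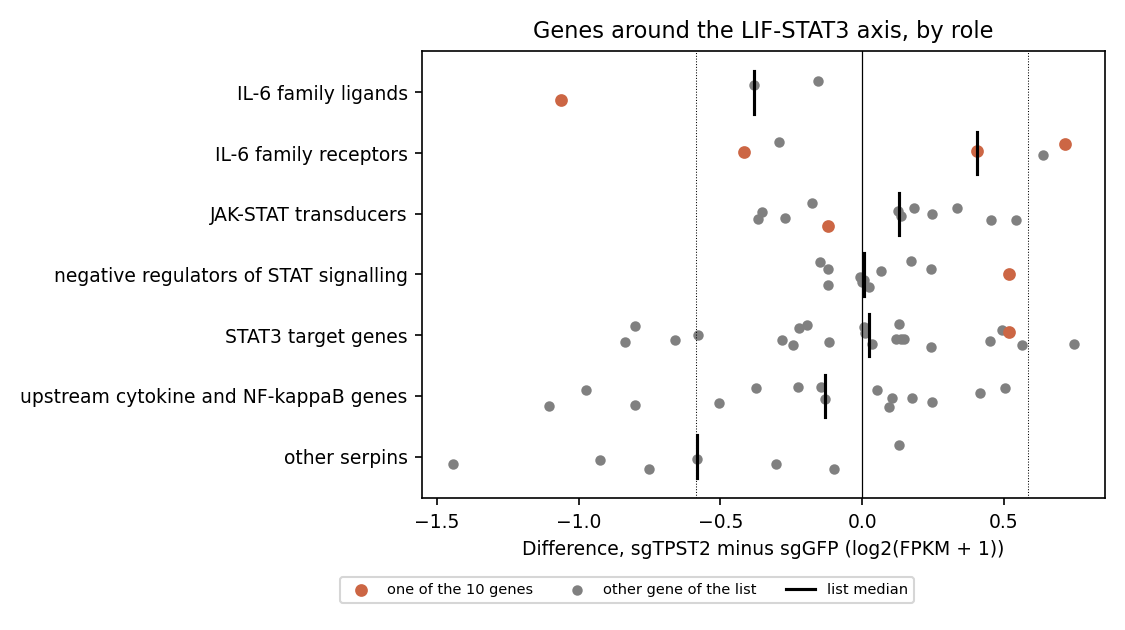
Difference (sgTPST2 minus sgGFP, log2(FPKM + 1)) of genes past 1 FPKM in 7 lists, with the genes described in orange, the other genes in grey, the list median as a black bar and dotted lines at 1.5-fold. On this scale 0 of the transducers and the negative regulators were 1.5-fold apart. LIF lay apart from the other ligands, and 3 of 7 other serpins were at least 1.5-fold lower.

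In sgGFP the order of levels per length was SERPINA3, STAT3, IL6ST, PTX3, LIF, OSMR, LIFR, SOCS3, IL11 and IL6. The counting intervals of PTX3 and LIF overlapped, as did those of LIFR and SOCS3. In sgTPST2 the order was IL6ST, STAT3, OSMR, LIF, SOCS3, LIFR, SERPINA3, IL11, PTX3 and IL6. There, IL6ST and STAT3, LIFR and SERPINA3, and PTX3 and IL6 were not separated by their intervals. SERPINA3 thus stood first in sgGFP and beside LIFR in sgTPST2, and PTX3 beside LIF and beside IL6.

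With 2 libraries, likeness between genes can be measured only as the distance between their log2 ratios. It was taken over 8792 other protein-coding genes that the authors tested and that reached 5 FPKM, leaving out genes listed at 0. For SERPINA3, with a log2 ratio of -6.39, the nearest were ARHGAP29 (6.82 and 0.0801 FPKM, -6.41), the sialomucin gene EMCN (9.64 and 0.136, -6.14) and MYBPH (6.98 and 0.0655, -6.74). For PTX3, with a log2 ratio of -8.78, no gene was close: the nearest were DDIT4L (34.0 and 0.244 FPKM, -7.12), MYBPH and ARHGAP29. For LIF, with -1.14, they were the potassium channel gene KCNN4 (40.5 and 18.4 FPKM), ABLIM1 (8.17 and 3.71) and AEBP2, on the short arm of chromosome 12 (21.4 and 9.71), all 3 within 0.01 of LIF. PTX3 had the lowest log2 ratio of all these genes and SERPINA3 the fifth lowest.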

How the data were processed

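Total RNA of 2 MIA PaCa-2 cultures, sgGFP and sgTPST2, was sequenced after stranded library preparation, per the labels' protocols. The submitters' processing notes name STAR, Cuffdiff and hg38; tool versions, annotation and strand setting were not given in the sources used here. In the deposited table there is 1 value per gene and library, and the header names no unit: the authors' values were read as FPKM, as Cuffdiff reports them. The p-value, q-value and test statistic (a score) are the authors' own, and the deposited log2 fold change equals the log2 difference used here. All 58698 identifiers matched GENCODE release 29 (GRCh38).

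Genes under 1 FPKM in both libraries were left out, and calls are at 2-fold and 1.5-fold on the log2(FPKM + 1) scale. With 1 library per condition no test was made. Depth was read from low values of genes with 1 transcript over 1500 bases: 90.4% of 895 values in sgGFP and 91.4% of 895 in sgTPST2 lay within 0.1 of whole fragments, where evenly spread values would give 20%. The step was fitted on these same values. Intervals of a difference combine the Poisson intervals of both values.

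The members, the 19 gene lists (13 of pathways, 6 of markers) and the alternatives were chosen with earlier results of these data known. Named genes are the 10 members, TPST2, TPST1 and SLC35B2, up to 5 genes per pathway list with the largest differences among those at 5 FPKM or more, overlapping genes and nearest expressed neighbours, and the 3 genes most like SERPINA3, PTX3 and LIF. SLC35B3 (8.26 and 11.7 FPKM) and PAPSS1 (12.2 and 13.5) were also named from the tyrosine sulfation list. On the log2(FPKM + 1) scale, 1 of its 6 genes, TPST2, was 1.5-fold apart, and the median was 0.15. Of the acinar and islet markers 0 passed 1 FPKM, and KRT8, KRT18 and KRT19 of the line's own markers were at least 2-fold lower. A few genes that the rule or a list would name are not reported here. The analysis used Python 3.11.15, pandas 2.3.3 and scipy 1.17.1, and the scripts were tested on simulated data.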

Additional observations from a re-analysis of the deposited data

How the results depend on the processing

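No paired analysis was possible because sgGFP and sgTPST2 have 1 library each, and leaving out a replicate would leave nothing to compare. SERPINA3, PTX3 and LIF were the 3 genes called lower under each of the 9 alternatives run. Only the pseudocount and the scalings change a gene's own difference. The changed filters, the threshold of 1.5 and leaving out genes could not remove these 3, so their outcome there was fixed in advance. With a fold threshold of 1.5, 1 gene was higher, OSMR, in place of 0. Over all genes, 393 were lower and 216 higher; with a pseudocount of 0.1 the counts were 651 and 402, with genes at 5 FPKM or more 241 and 127, and with a fold threshold of 1.5 they were 931 and 592, while without genes listed at 0 the count higher was 139. A pseudocount of 0.1 gave differences of -6.29 for SERPINA3, -7.16 for PTX3 and 0.44 for IL6, the last against a value listed at 0. Scaling to the same upper quartile, the same sum or the median gene multiplied the sgTPST2 values by 1.0018, 1.0091 and 1.0001. All 10 differences stayed inside their counting intervals, but factors this near to 1 could not have moved them out. That outcome too was fixed in advance. With no filter on low values the medians were -0.043 for the family's ligands, 0.037 for its receptors and 0.00 for other serpins. Among genes at 5 FPKM or more the median of the transducers was -0.12 in place of 0.13, so that list has no stable direction. Leaving out genes of the short arm of chromosome 12 was chosen after seeing the data. Depth limits IL6, IL11 and the sgTPST2 value of PTX3, and the absence of replicates limits every difference.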

Other observations

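Among protein-coding genes at 5 FPKM or more that the authors tested, the gene with the seventh lowest log2 ratio was CSF3, which encodes the cytokine G-CSF, whose receptor also signals through STAT3. CSF3 stood at 11.4 FPKM in sgGFP and at 0.213 in sgTPST2, a log2 ratio of -5.74, and it was chosen after its values were seen.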
